A study of Mus musculus with 8 samples.

Results

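The 10 genes described here encode the core microRNA machinery of the mouse: the nuclear processing enzyme Drosha and its RNA-binding partner Dgcr8, the cytoplasmic processing enzyme Dicer1, the 4 Argonaute proteins Ago1 to Ago4, and the 3 GW182 scaffold proteins Tnrc6a, Tnrc6b and Tnrc6c. They were chosen by name and by function. All 10 were among the 22430 genes listed in the count table, and all 10 were among the 16730 genes that passed the filter on low counts, which kept a gene with counts above 5 in 4 or more libraries.

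As background, a primary microRNA transcript is cut in the nucleus by the Microprocessor, which pairs the nuclease Drosha with Dgcr8. The hairpin that is released is exported by exportin-5 and cut again by Dicer, and a single strand of the product is loaded into an Argonaute protein. Argonaute uses bases 2 to 8 of that strand, the seed, to find matching sites in messenger RNAs, and it binds a GW182 protein that recruits deadenylases and the decapping machinery. In neurons this pathway is known for its part in differentiation, synaptic plasticity and survival.

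Polyadenylated RNA was sequenced from brain hemispheres of male C57Bl/6JRj mice aged 6 months (6m, young adult, 4 libraries) or 24 months (24m, aged, 4 libraries), each library from a different animal. No treatment or engineered allele is labelled for either age, and age was the only labelled difference. The question behind the comparison was how messenger RNA abundance differs between young adult and aged brain. A hemisphere holds neurons, glia, vessels and blood, so a lower level can come from fewer cells of a type or from less RNA per cell, and these cannot be told apart.

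Libraries held 63460940 to 103462414 counts. Each of the 8 neuron, 8 astrocyte and 8 oligodendrocyte markers passed the filter, and none was listed at 0. The library 24m replicate 1 stood apart from the other 24m libraries. Its chi-square per degree of freedom against them was 163 to 378, beside 11.8 to 55.3 among them, and its summed level lay outside their range in all 8 cell type marker lists. For 6 B and plasma cell genes it was 1.16e+03 counts per 1e+06 (CPM) against 45.7 to 82 in the other 24m libraries, for erythroid genes 4.16e+03 against 1.24e+03 to 2.12e+03 CPM, for microglia 834 against 560 to 674 CPM, for astrocytes 3.69e+03 against 2.77e+03 to 3e+03 CPM and for neurons 3.5e+03 against 3.78e+03 to 4.11e+03 CPM. Mitochondrially encoded genes took 5.26 to 6.52% of counts in 6m and 3.18 to 3.69% in 24m. Of 8 neuron markers 3 were called higher and 0 lower between the ages (at the thresholds given with the first comparison, where 25.3% of all genes were called higher and 18.3% lower), with sums of 2.72e+03 to 3.25e+03 CPM in 6m and 3.5e+03 to 4.11e+03 CPM in 24m. Of 8 astrocyte markers 6 were called higher and 0 lower, while their sums overlapped at 2.67e+03 to 3.49e+03 and 2.77e+03 to 3.69e+03 CPM. Of 8 endothelial markers 2 were called higher and 2 lower, with sums of 76.3 to 111 and 45.9 to 70.7 CPM, and all 5 erythroid markers were called lower, with sums of 5.43e+03 to 7.61e+03 and 1.24e+03 to 4.16e+03 CPM. The part of these shifts in the results that follow was not tested.

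Levels are given as CPM scaled by the trimmed mean of M values (TMM), and fold changes as 24m over 6m on the log2 scale with their standard error (SE) and the adjusted p of the edgeR quasi-likelihood test over all 16730 genes. A gene was called when its adjusted p was at most 0.05 and its log2 fold change was 0.58 or more, or -0.58 or less. The machinery did not move as a block between the ages. Ago1, Ago2 and Tnrc6c were called higher in 24m, 3 of 10 members (30%) against 25.3% of all genes tested. Tnrc6b was the single member called lower (10%), against 18.3% of all genes. In either direction 4 members were called (40%), against 43.6% of all genes, so the share of members called was close to the background. An adjusted p of at most 0.05 alone was reached by 8 members, against 62.6% of all genes, and the libraries of the ages did not overlap for 6 members, against 55.2% of all genes. The median log2 fold change was 0.447 over the members and -0.00337 over all genes, and the members spanned -0.94 to 2.19. After quantile normalization with DESeq2 the members' median was 0.16 beside -0.10 for all genes, and with the trend over GC content removed it was 0.17 beside -0.10. It was below 0 and near that of all genes with the trend over gene length (-0.15 beside -0.09) or both trends (-0.17 beside -0.08) removed.

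**Figure D1:**
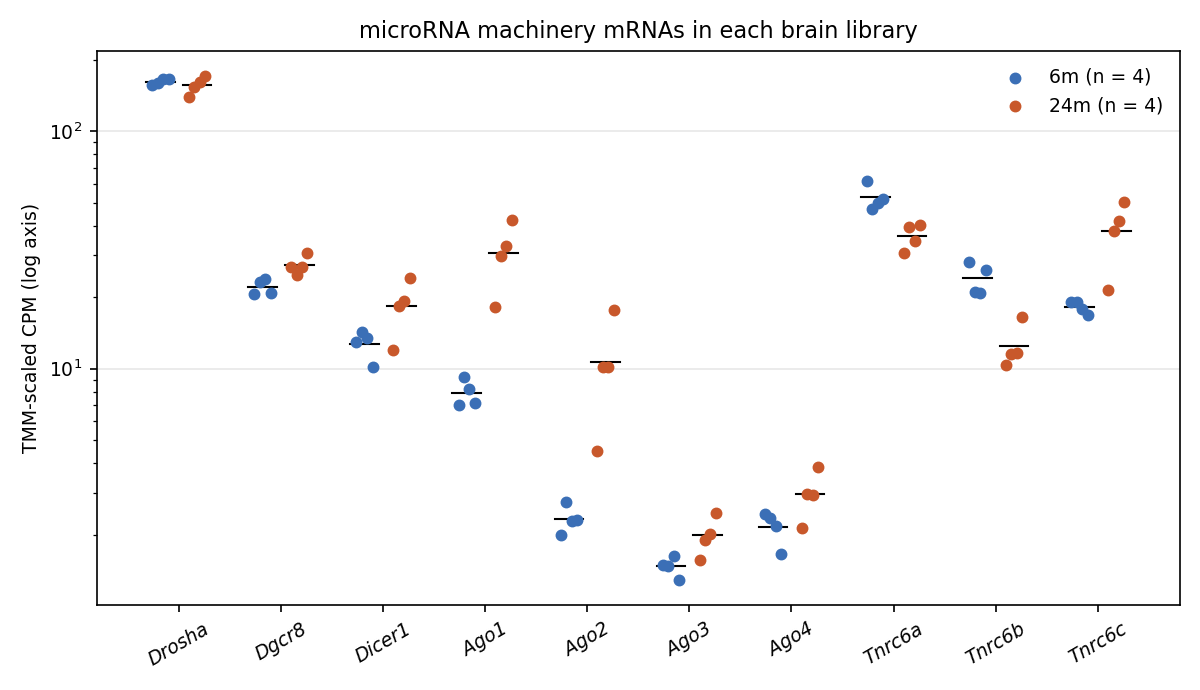
TMM-scaled CPM on a log axis for each of the 10 machinery genes. Each point is a library, blue for 6m and orange for 24m (n = 4 each, replicates 1 to 4 from left to right), and black bars are group means. All 24m points of Ago1, Ago2 and Tnrc6c lie above the 6m points, and all 24m points of Tnrc6a and Tnrc6b lie below them.

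Drosha is the nuclease that makes the first cut in primary microRNA transcripts. It is encoded on chromosome 15 at 12824839 to 12935474 (GRCm39, plus strand). Its level was 156, 159, 166 and 166 CPM in 6m replicates 1 to 4 and 139, 154, 162 and 171 CPM in 24m replicates 1 to 4. The ages overlapped, and the lowest and the highest library were both 24m. The log2 fold change was -0.05 ± 0.08 (SE, n = 4 per age) with an edgeR adjusted p of 0.641.

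Dgcr8 is the double-stranded RNA-binding subunit that positions Drosha on the hairpin. It lies on chromosome 16 at 18069575 to 18107140 (GRCm39, minus strand). Its level was 20.7, 23.1, 23.9 and 20.8 CPM in 6m and 26.8, 24.9, 26.7 and 30.7 CPM in 24m. Every 24m library was above every 6m library, by a small margin. Its log2 fold change was 0.30 ± 0.10 with an edgeR adjusted p of 0.0194, which passed the p threshold and not the fold threshold. The adjusted p was above 0.05 in 2 of the 8 omissions of a library. Part of Dgcr8 overlaps Trmt2a on the other strand and Gm49776 on the same strand, and how the authors' counting treated strand was not given in the sources used here, so reads of these genes could be shared.

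The Dgcr8 messenger RNA is known as a Microprocessor substrate itself, because it carries hairpins that Drosha can cut. The annotation places Mir1306 (chromosome 16, 18102103 to 18102181) and Mir3618 inside Dgcr8 on the same strand. The RefSeq hairpin of Mir1306 (sequence table of GRCm38.p6) matched 30 of the 36 annotated Dgcr8 transcripts over its full 79 bases and fell in the coding sequence of the canonical transcript. It is shown because it links the Microprocessor to the RNA of its own subunit, with both mature arms in capitals, followed by the mature arms with their seeds in capitals.
Mir1306 hairpin: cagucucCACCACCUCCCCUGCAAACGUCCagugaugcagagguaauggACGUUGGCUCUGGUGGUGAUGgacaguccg
miR-1306-5p: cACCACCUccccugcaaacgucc
miR-1306-3p: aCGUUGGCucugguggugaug
The poly(A) libraries counted the Dgcr8 messenger RNA and not these small RNAs, for which no value was available here.

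Within each library, the ratio of Dgcr8 to Drosha, computed from CPM per kilobase (kb) of exonic length, was 0.11, 0.12, 0.119 and 0.104 in 6m and 0.16, 0.134, 0.137 and 0.148 in 24m. All 24m ratios were higher, and the difference of the mean log2 ratio was 0.35 (exact two-sided permutation p = 0.0286, the smallest that 70 assignments of the libraries allow, adjusted p = 0.04 over 7 ratios, higher in 4 of 4 24m libraries). A ratio within a library shows unequal change of the 2 genes, not which of them changed.

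Dicer1 makes the second cut, from hairpin to duplex. It lies on chromosome 12 at 104654001 to 104718211 (GRCm39, minus strand) and has a 3′ UTR of 3851 bases in its canonical transcript. Its level was 12.9, 14.3, 13.5 and 10.2 CPM in 6m and 12, 18.4, 19.3 and 24.1 CPM in 24m. The library 24m replicate 1 fell inside the 6m range and the other 24m libraries were above it. Dicer1 differed by 0.54 ± 0.20 on the log2 scale (edgeR adjusted p = 0.0369), under the fold threshold. With each library left out in turn it was 0.38 to 0.70, and its adjusted p was above 0.05 in 6 of the 8 cases, such as 0.0982 without 24m replicate 4 (0.38) and 0.101 without 6m replicate 4 (0.44). It passed both thresholds without 24m replicate 1 (0.70, 0.000819) and without 6m replicate 2 (0.60, 0.0456). The ratio of Dicer1 to Drosha per kb was 0.0343 to 0.0497 in 6m and 0.048 to 0.078 in 24m, a difference of 0.55 on the log2 scale that overlapped and did not pass (exact permutation p = 0.0571, adjusted p = 0.0667, two-sided). Without 24m replicate 1 this difference was 0.69 (exact permutation p = 0.0286, not adjusted over the ratios and the smallest that the remaining libraries allow).

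The genes whose log2 CPM was most like that of Dicer1 over the 8 libraries, among 13969 genes of at least 1 CPM on average, were Bmp3, Cdh8, Slc30a5, Ppp3ca and Mbd5, with Pearson r of 0.9936, 0.9933, 0.9928, 0.9907 and 0.9905 in that order. Bmp3 is a secreted factor, Cdh8 a cadherin, Slc30a5 a zinc transporter, Ppp3ca the calcineurin catalytic subunit and Mbd5 a methyl-CpG-binding domain protein. Their log2 fold changes were 0.66, 0.40, 0.32, 0.69 and 0.78. The r values describe 8 libraries that share 2 ages and their depth, and they were picked as the highest of many.

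The Argonautes split into a pair that rose several fold and a pair with small differences. Ago1, Ago3 and Ago4 stand side by side on chromosome 4 between 126225496 and 126427406 (GRCm39, all on the minus strand), and Ago2 is alone on chromosome 15 at 72967693 to 73056784. Ago2 is the member of the family known to cut a fully matched target, while the others act mainly through the proteins they recruit.

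Ago1 was at 7.06, 9.19, 8.24 and 7.16 CPM in 6m and at 18.2, 29.9, 32.9 and 42.2 CPM in 24m. Even the lowest 24m library was well above the highest 6m library. The means were 7.91 ± 1.01 and 30.8 ± 9.9 CPM (SD, n = 4 each), and the log2 fold change was 1.96 ± 0.23 with an edgeR adjusted p of 0.000129.

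Ago2 was at 2, 2.74, 2.29 and 2.3 CPM in 6m and at 4.49, 10.2, 10.2 and 17.6 CPM in 24m. The ages did not overlap, and the 24m libraries were more spread than the 6m libraries, with replicate 1 the lowest and replicate 4 the highest. Ago2 rose by 2.19 ± 0.35 on the log2 scale with an edgeR adjusted p of 0.000611. With 24m replicate 1 left out, the log2 fold changes were 2.15 for Ago1 and 2.45 for Ago2. They were lowest with 24m replicate 4 left out, at 1.77 for Ago1 and 1.83 for Ago2. Ago2 overlaps Chrac1 on the other strand, which had a log2 fold change of -0.65, opposite in sign to that of Ago2.

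Ago3 was at 1.49, 1.47, 1.63 and 1.29 CPM in 6m and at 1.57, 1.9, 2.01 and 2.46 CPM in 24m. The library 24m replicate 1 again lay inside the 6m range. The log2 fold change was 0.43 ± 0.17 with an edgeR adjusted p of 0.0465, under the fold threshold, and the lowest library held 85 counts. The adjusted p was above 0.05 in 7 of the 8 omissions of a library, up to 0.133 without 24m replicate 4 (0.31), and was 0.0102 without 24m replicate 1 (0.54).

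Ago4 was at 2.45, 2.35, 2.17 and 1.65 CPM in 6m and at 2.14, 2.96, 2.94 and 3.84 CPM in 24m. The ages overlapped through 24m replicate 1. Its log2 fold change was 0.46 ± 0.20 (edgeR adjusted p = 0.0674). Of the omissions of a library, that of 24m replicate 1 alone took it past both thresholds (0.60, 0.00937). The log2 fold change was 0.31 (0.186) without 24m replicate 4 and 0.35 (0.162) without 6m replicate 4.

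Ago3 and Ago4 were thus placed on either side of Ago1 on the chromosome and differed from it in change. The ratio of Ago3 to Ago1 per kb was 0.0921, 0.0696, 0.0858 and 0.0782 in 6m and 0.0376, 0.0276, 0.0265 and 0.0254 in 24m, a log2 difference of -1.48. The ratio of Ago4 to Ago1 was 0.39, 0.286, 0.296 and 0.258 in 6m and 0.132, 0.111, 0.1 and 0.102 in 24m, a log2 difference of -1.46. Both ratios were lower in 4 of 4 24m libraries than in any 6m library (exact two-sided permutation p = 0.0286 each, adjusted p = 0.04). The ratio of Ago2 to Ago1 was 0.162 to 0.187 in 6m and 0.144 to 0.244 in 24m, which overlapped, with a log2 difference of 0.13 (exact permutation p = 0.486). The 24m ratios ranged more widely than the 6m ratios.

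The nearest tested genes on each side of the Argonaute cluster did not share the rise of Ago1. Tekt2, which encodes a tektin of cilia, was called lower at -0.92 ± 0.18 (edgeR adjusted p = 0.00193). Adprs, an ADP-ribosylhydrolase, had a log2 fold change of -0.42 with an adjusted p of 0.0558, and Clspn, a replication checkpoint protein, one of 0.35 with an adjusted p of 0.208. The uncharacterised gene 5730409E04Rik had 0.42 with an adjusted p of 0.00346, under the fold threshold.

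As a share of the summed Argonaute level per kb, Ago1 made up 64.1 ± 2.3% in young and 75.1 ± 1.63% in aged brain (SD, n = 4 each). Ago2 was 11 ± 1.01% and 14.4 ± 2.83%, Ago3 5.21 ± 0.486% and 2.2 ± 0.451%, and Ago4 19.6 ± 2.86% and 8.37 ± 1.18%. Ago1 was thus the most abundant Argonaute messenger RNA at both ages, and the ranges of the ages overlapped for Ago2 alone. The summed level was 1.32 to 1.71 CPM per kb in 6m and 2.9 to 7.02 CPM per kb in 24m, without overlap.

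**Figure D2:**
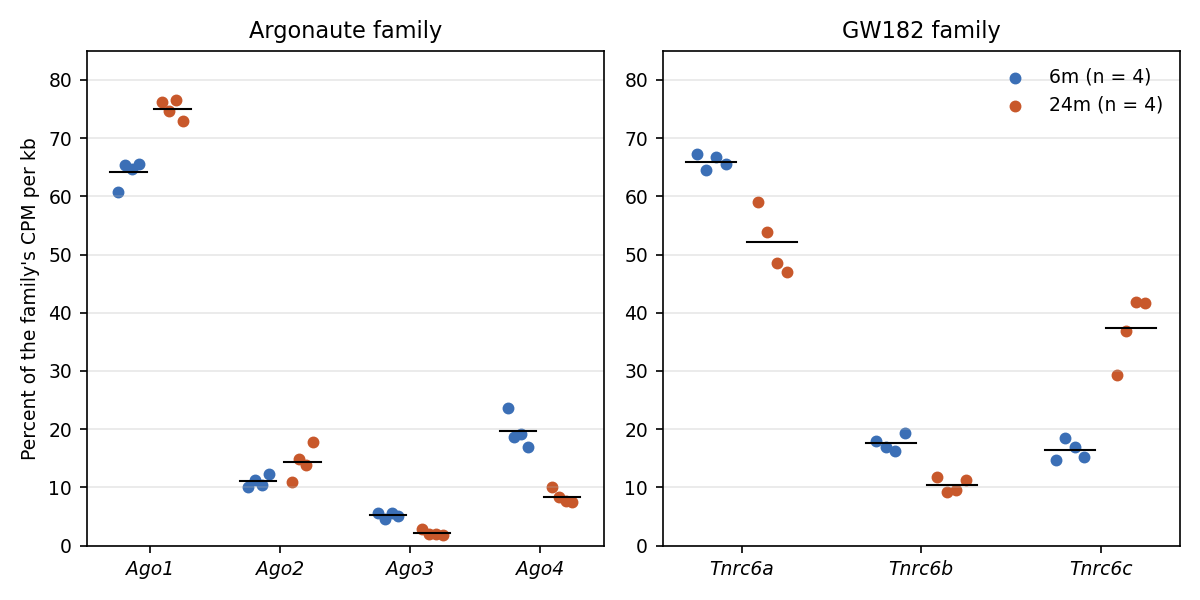
Share of each gene in its family's summed CPM per kb of exonic length, in percent. Left, the Argonautes, right, the GW182 genes, with a point per library (blue 6m, orange 24m, n = 4 each) and black bars at the means. Ago1 and Tnrc6c take larger shares in 24m, Ago3, Ago4, Tnrc6a and Tnrc6b smaller ones.

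The GW182 genes encode the scaffolds that Argonaute binds, and their levels differed between ages in opposite directions. Tnrc6a, on chromosome 7 at 122723094 to 122794519 (GRCm39, plus strand), was at 61.9, 47.2, 50 and 51.8 CPM in 6m and at 30.6, 39.5, 34.5 and 40.3 CPM in 24m. All 24m libraries were below all 6m libraries. The log2 fold change was -0.54 ± 0.12 with an edgeR adjusted p of 0.00331, just short of the fold threshold. Tnrc6a was called lower without 6m replicate 2 (-0.59), without 24m replicate 2 (-0.58) or without 24m replicate 4 (-0.60). In the other omissions of a library it was at -0.57 to -0.45 and not called. With the GC trend removed it was called at -0.84.

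Tnrc6b, on chromosome 15 at 80595019 to 80825286 (plus strand), was at 28.1, 21.1, 20.8 and 26.1 CPM in 6m and at 10.4, 11.5, 11.6 and 16.5 CPM in 24m. The ages did not overlap. Tnrc6b fell, with a log2 fold change of -0.94 ± 0.16 and an edgeR adjusted p of 0.000986, so that the mean level in 6m was 1.92 times that in 24m.

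Tnrc6c, on chromosome 11 at 117544908 to 117654265 (plus strand), was at 19, 19.1, 17.8 and 16.8 CPM in 6m and at 21.4, 38, 41.7 and 50.2 CPM in 24m. The ages did not overlap, although 24m replicate 1 lay close to the 6m range. Tnrc6c rose by 1.06 ± 0.22 on the log2 scale (edgeR adjusted p = 0.00225). With a library left out it ranged from 0.89 (without 24m replicate 4) to 1.26 (without 24m replicate 1).

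The balance inside the family moved with these changes. The ratio of Tnrc6c to Tnrc6a per kb was 0.218, 0.288, 0.254 and 0.231 in 6m and 0.497, 0.684, 0.861 and 0.887 in 24m, a log2 difference of 1.53. The ratio of Tnrc6b to Tnrc6a was 0.268, 0.263, 0.245 and 0.297 in 6m and 0.2, 0.171, 0.198 and 0.241 in 24m, a log2 difference of -0.41. The ages were apart in both ratios (exact two-sided permutation p = 0.0286 each, adjusted p = 0.04). Leaving out a library leaves fewer assignments, and 0.0286 is again the smallest p they allow. Tnrc6c to Tnrc6a had this exact permutation p in each omission, with differences of 1.43 to 1.71. For Tnrc6b to Tnrc6a the exact p was 0.0571 with any 6m library left out, with differences of -0.45 to -0.36. The ages were still apart in these omissions. Tnrc6a went from 66 ± 1.27 to 52.1 ± 5.44% of the family, Tnrc6b from 17.7 ± 1.34 to 10.5 ± 1.25%, and Tnrc6c from 16.3 ± 1.77 to 37.4 ± 5.88%. The summed GW182 level was 4.99 to 6.26 CPM per kb in 6m and 3.54 to 5.84 CPM per kb in 24m, which overlapped.

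Compared per kb of exonic length, the machinery genes spanned a wide range of levels. In 6m the order was Drosha (17.4 CPM per kb), Tnrc6a (3.59), Dgcr8 (1.97), Tnrc6b (0.963), Ago1 (0.96), Tnrc6c (0.881), Dicer1 (0.758), Ago4 (0.293), Ago2 (0.165) and Ago3 (0.0776). Neighbours from Tnrc6b to Dicer1 overlapped between libraries, and all other neighbours were apart. In 24m the order was Drosha (16.8 CPM per kb), Ago1 (3.74), Tnrc6a (2.47), Dgcr8 (2.43), Tnrc6c (1.83), Dicer1 (1.1), Ago2 (0.752), Tnrc6b (0.501), Ago4 (0.404) and Ago3 (0.105). There only Drosha and Ago3 were apart from their neighbours. Ago1 was thus the fifth in 6m and the second in 24m, where its range overlapped that of Tnrc6a. The exonic length is the union of all annotated exons, and per kb of the longest transcript Ago1 was the seventh in 6m (1.08), behind Tnrc6c (1.55), Tnrc6b (1.35) and Dicer1 (1.29), and Tnrc6a (4.21) and Ago1 (4.19) changed places in 24m.

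Fold changes in these libraries followed gene length, and the machinery genes are long. The median log2 fold change went from -0.67 in the shortest decile of the genes to 0.52 in the longest, which begins at 12374 bases of exon. Dicer1, Ago2, Ago3, Tnrc6a, Tnrc6b and Tnrc6c fall in the longest decile, in which 46.6% of genes were called higher and 7.08% lower. Tnrc6a and Tnrc6b were lower in 24m, against this trend. With the trend over exonic length removed in each library, Ago1 and Ago2 stayed called higher at 1.57 and 1.53 on the log2 scale, and Tnrc6b stayed called lower at -1.58. Under the same correction Tnrc6c was at 0.38 with an edgeR adjusted p of 0.01, under the fold threshold, and Tnrc6a was called lower at -1.14. Dicer1 was then at -0.10 (adjusted p = 0.381), Ago3 at -0.19 (0.221), Ago4 at 0.15 (0.462), Dgcr8 at -0.20 (0.109) and Drosha at -0.48 (0.000517). The directions given above for Dicer1, Ago3 and Dgcr8 therefore depend on this correction.

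**Figure D3:**
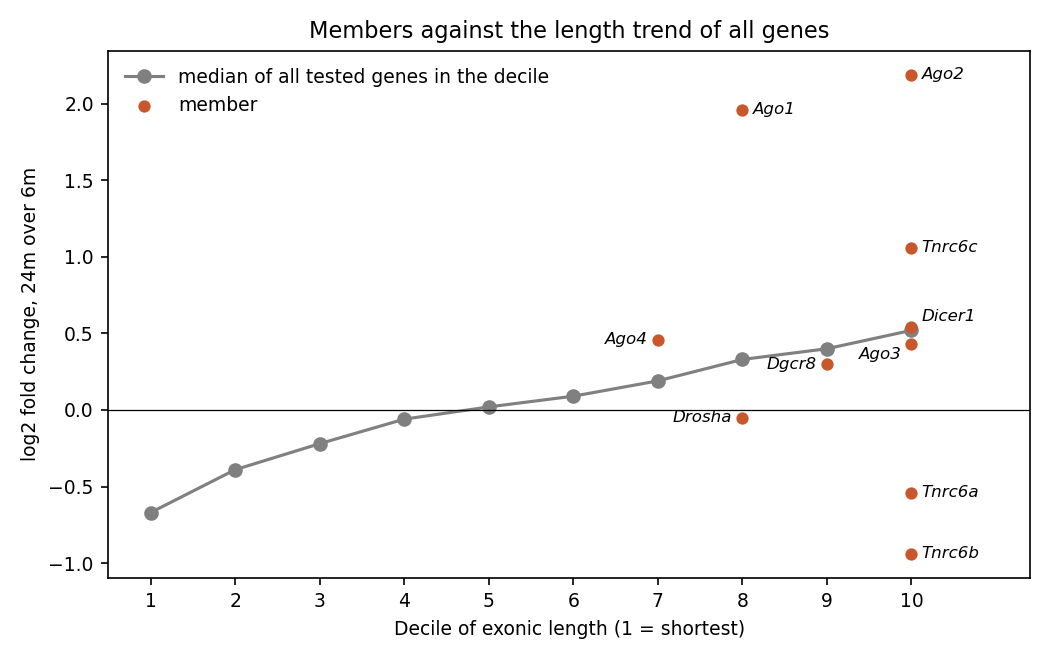
Log2 fold change, 24m over 6m, against the decile of exonic length. The grey line joins the medians of all tested genes in each decile, from -0.67 to 0.52, and orange points are the 10 machinery genes. Dicer1, Ago3 and Dgcr8 sit near the line, Ago1, Ago2 and Tnrc6c above it, and Tnrc6a and Tnrc6b far below it.

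**Figure D4:**
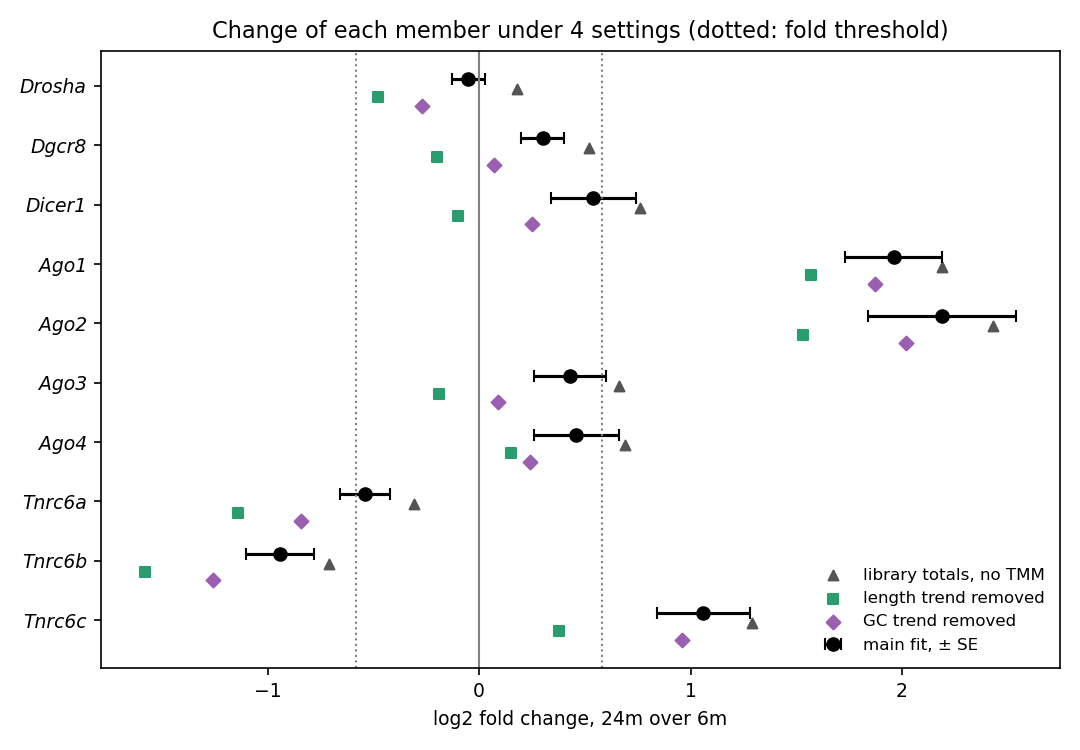
Log2 fold change of each gene, 24m over 6m, under 4 settings: TMM scaling with its SE (black circles), library totals without TMM (grey triangles), the length trend removed (green squares) and the GC trend removed (purple diamonds). Dotted lines mark 0.58 and -0.58. Ago1, Ago2 and Tnrc6b stay outside the dotted lines in all 4, and Dicer1, Ago3 and Dgcr8 are on the other side of 0 with the length trend removed.

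The scaling also matters for small changes. Scaling by library totals alone moved the median of all genes to 0.21, so that Dicer1 (0.76), Ago3 (0.66) and Ago4 (0.69) passed both thresholds, while Tnrc6a was at -0.31 with an edgeR adjusted p of 0.0675. Ago1, Ago2 and Tnrc6b had the same call in all 20 alternative fits, with log2 fold changes of 1.57 to 2.19, 1.53 to 2.45 and -1.59 to -0.71.

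Promoter sequences are shown for Ago1, Tnrc6b and Tnrc6c, called members with an entry in the RefSeq promoter table (GRCm38.p6, windows of 300 bases around the start), since the first and the last rose and the other fell. Capitals mark matches, on either strand, to the GC box GGGCGG, to the box CCAAT, to the TATA motif TATAAA, to the E-box CACGTG or to the ETS-type core GGAAGT. The motifs do not contain each other. The entries lie at chr4:126468582-126468881 (minus strand, the 5′-most of 2 starts), chr15:80711063-80711362 (plus, the 5′-most of 2) and chr11:117654039-117654338 (plus).
Ago1: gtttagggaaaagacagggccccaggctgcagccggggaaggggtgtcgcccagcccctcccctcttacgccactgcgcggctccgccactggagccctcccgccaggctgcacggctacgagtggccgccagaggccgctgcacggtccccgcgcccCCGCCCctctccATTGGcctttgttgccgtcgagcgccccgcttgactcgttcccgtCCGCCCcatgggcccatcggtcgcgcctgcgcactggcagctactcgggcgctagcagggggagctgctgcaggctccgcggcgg
Tnrc6b: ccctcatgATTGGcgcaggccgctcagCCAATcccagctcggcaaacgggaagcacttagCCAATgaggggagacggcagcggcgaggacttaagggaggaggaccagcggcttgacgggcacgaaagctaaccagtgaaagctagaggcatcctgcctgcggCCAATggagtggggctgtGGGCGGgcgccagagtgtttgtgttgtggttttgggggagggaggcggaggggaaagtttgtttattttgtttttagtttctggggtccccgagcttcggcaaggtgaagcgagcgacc
Tnrc6c: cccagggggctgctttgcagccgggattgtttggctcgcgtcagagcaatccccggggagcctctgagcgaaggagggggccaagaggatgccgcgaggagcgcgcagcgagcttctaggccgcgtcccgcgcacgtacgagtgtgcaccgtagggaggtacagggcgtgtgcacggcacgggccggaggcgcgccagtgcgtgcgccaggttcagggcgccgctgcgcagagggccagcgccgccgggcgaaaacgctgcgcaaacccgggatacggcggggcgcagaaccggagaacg
Ago1 held 2 GC boxes and 1 CCAAT, Tnrc6b 1 GC box and 4 CCAAT, and Tnrc6c no match to any of the 5 motifs. Of 32851 promoters of this length, 35.7% held the GC box, 37.4% the CCAAT box, 13.6% the TATA motif, 7.15% the E-box and 23.8% the ETS-type core. The Ago1 and Tnrc6c windows had 31 and 40 CpG sites and 73 and 71.3% GC, and Tnrc6b had 18 CpG sites and 59.7% GC, against medians of 7 CpG sites and 52.7% GC over all promoters. Ago1 and Tnrc6c, which rose, shared no motif of this set.

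Members of the machinery are themselves targets of microRNAs, and Dicer1 is a known target of the miR-103 family. For 6 microRNAs abundant in brain, with the seed (bases 2 to 8) in capitals, the RefSeq mature sequences are as follows.
let-7a-5p: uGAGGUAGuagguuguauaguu
miR-9-5p: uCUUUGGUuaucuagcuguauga
miR-103-3p: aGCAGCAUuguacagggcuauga
miR-128-3p: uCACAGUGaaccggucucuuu
miR-132-3p: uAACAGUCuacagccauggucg
miR-29a-3p: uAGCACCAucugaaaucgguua
These 6 seeds differ, and a match here means the 7 bases complementary to the seed. The 3′ UTRs of the canonical transcripts (GRCm39) held 35 matches in 9 of the 10 members, or 0.62 per kb, against 0.624 per kb over the 3′ UTRs of 16264 tested protein-coding genes. The density of matches in the members was thus that of all genes.

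For miR-103-3p alone, picked after the counts were seen, the members held 10 matches, or 0.177 per kb against 0.0882 per kb over all 3′ UTRs. A match was present in 8 of the 10 members, all but Drosha and Tnrc6a, against 13.5% of all 3′ UTRs, which are much shorter with a median of 1255 bases. The first match in each is shown with its surroundings, the 7 matching bases in capitals.
Dgcr8: atgtacagtcATGCTGCaagggtgg
Dicer1: gcttcatgtaATGCTGCacttaggt
Ago1: cgcaacggtaATGCTGCagaactgc
Ago2: cccctttagtATGCTGCatatggat
Ago3: ttaaaaccagATGCTGCtgagtaga
Ago4: tgcccattttATGCTGCtgtgtggt
Tnrc6b: ttgttggcacATGCTGCctgtgagg
Tnrc6c: acagcttgccATGCTGCcatttagc
Both genes that rose the most and the gene that fell the most carried such a match, so its presence did not separate the directions. Drosha had a 3′ UTR of 266 bases with no match to any of the 6 seeds. Ago2, Ago3 and Tnrc6b had 3′ UTRs of 11064, 12742 and 11609 bases with 8, 9 and 6 matches, and of these Ago2 rose, Tnrc6b fell and Ago3 did not pass the fold threshold. A match is a description of sequence, and no microRNA was measured here.

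The wider pathway was read from 5 lists of 72 other genes, of which 71 were tested. Of these 17 rose (23.9%, against 25.3% of all genes) and 5 fell (7.04%, against 18.3%) past both thresholds, and their median was 0.09 on the log2 scale. With the length trend removed 16 passed higher and 19 lower, where 19.4% of all genes passed higher and 20.4% lower, the background for each list under that correction. Both counts of genes passing higher, 17 and 16, include Trim71, whose call is not read as a result for the reason given below. The share called higher was thus close to the background, and the low count of falls depends on that correction. The largest log2 fold changes, leaving out Trim71 for its low counts in 6m, were those of Ddx6, Dcp1a and Xrn1.

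Among 18 tested processing and export partners, 4 were called higher (22.2%, against 25.3% of all genes) and 2 lower (11.1%, against 18.3%), with a median of 0.02, and 4 and 5 were with the length trend removed. The RNA-editing enzymes Adarb1 and Adar, which can edit primary microRNAs, rose by 1.86 ± 0.21 and 1.22 ± 0.09 on the log2 scale (edgeR adjusted p = 0.000114 and 2.42e-05). Ddx17, a helicase that joins the Microprocessor, rose by 1.22 ± 0.11 (4.58e-05). The 2 called lower were Tarbp2, a double-stranded RNA-binding partner of Dicer, at -0.84 ± 0.15 (0.00116), and Mettl3, the m6A methyltransferase, at -0.59 ± 0.09 (0.000473). Mettl3 lay at the fold threshold and was not called with library totals (-0.37), without 6m replicate 4 (-0.55) or without 24m replicate 4 (-0.56). Prkra, the other such partner of Dicer, averaged 28.6 ± 2.11 CPM in young and 21.1 ± 1.35 CPM in aged brain (log2 fold change -0.44, adjusted p = 0.00214), under the fold threshold. The exporter Xpo5 was at 0.50 ± 0.08 (0.000857), also under it. Lin28a, which blocks let-7 processing, held at most 1 count in a library and was not tested.

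Among 14 loading and RNA-binding partners, 2 were called higher (14.3%, against 25.3% of all genes) and 3 lower (21.4%, against 18.3%), with a median of -0.14, and 3 and 4 were with the length trend removed. Hsp90aa1, an inducible chaperone of the kind that opens Argonaute for loading, averaged 1.25e+03 ± 111 CPM in young and 479 ± 44.9 CPM in aged brain (log2 fold change -1.39 ± 0.10, edgeR adjusted p = 2.42e-05). Wtip, a LIM-domain protein, and Mov10, a helicase found with Argonaute, fell by 0.83 and 0.74. Wtip was under the fold threshold with the length trend removed (-0.56), as was Mov10 with library totals (-0.52). Fmr1, which encodes the RNA-binding protein FMRP, rose by 1.35 ± 0.33 (0.00598), and Limd1, a LIM-domain protein that bridges Argonaute and decapping factors, rose by 1.04 ± 0.12 (0.000135).

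Among 26 deadenylation and decapping effectors, 8 were called higher (30.8%, against 25.3% of all genes) and 0 lower (against 18.3%), with a median of 0.28. With the length trend removed 7 were called higher and 7 lower, Cnot1 and Pabpc1 among the latter at -0.61 and -0.60, so the one-sided count holds for the main scaling and not under that correction. Ddx6, the helicase that couples the deadenylase to decapping, averaged 1.93 ± 0.587 CPM in young and 23.1 ± 10.2 CPM in aged brain and so rose by 3.58 ± 0.35 on the log2 scale (edgeR adjusted p = 6.29e-05). The decapping factor Dcp1a was at 1.38 ± 0.311 and 5.87 ± 1.67 CPM (2.09 ± 0.25, adjusted p = 0.000137), and the 5′ exonuclease Xrn1 at 1.34 ± 0.285 and 5.4 ± 2.23 CPM (2.01 ± 0.30, 0.000468). Cnot1, the scaffold of the deadenylase complex, was at 84.2 ± 2.48 and 84.6 ± 11.1 CPM (0.01 ± 0.10, 0.951). Pabpc1, the poly(A)-binding protein, was at -0.34 ± 0.08 (0.00348), under the fold threshold. The change of Ddx6 was larger than that of any machinery gene and, with the length trend removed, was 3.08.

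Among 10 genes of microRNA tailing and decay, 3 were called higher (30%, against 25.3% of all genes) and 0 lower (against 18.3%), with a median of 0.24, and 2 and 2 were with the length trend removed. Tent4b, a poly(A) polymerase, rose by 1.65 ± 0.25 (edgeR adjusted p = 0.000499) and the uridylyltransferase Tut7 by 0.91 ± 0.22 (0.00526). Tut7 was at 0.29 (0.0692) with the length trend removed and passed neither threshold there. Trim71, a let-7 target of embryonic cells, held 1 to 6 counts in 6m and 19 to 33 in 24m. It passed the filter on low counts only through the 24m libraries, where it is high, so its call is not read as a result, and the list has 2 called higher without it. Trim71 is also among the 2 called higher with the length trend removed. The 3 Piwi genes tested held at most 54 counts in a library, and 0 were called (1 was called lower with the length trend removed).

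**Figure D5:**
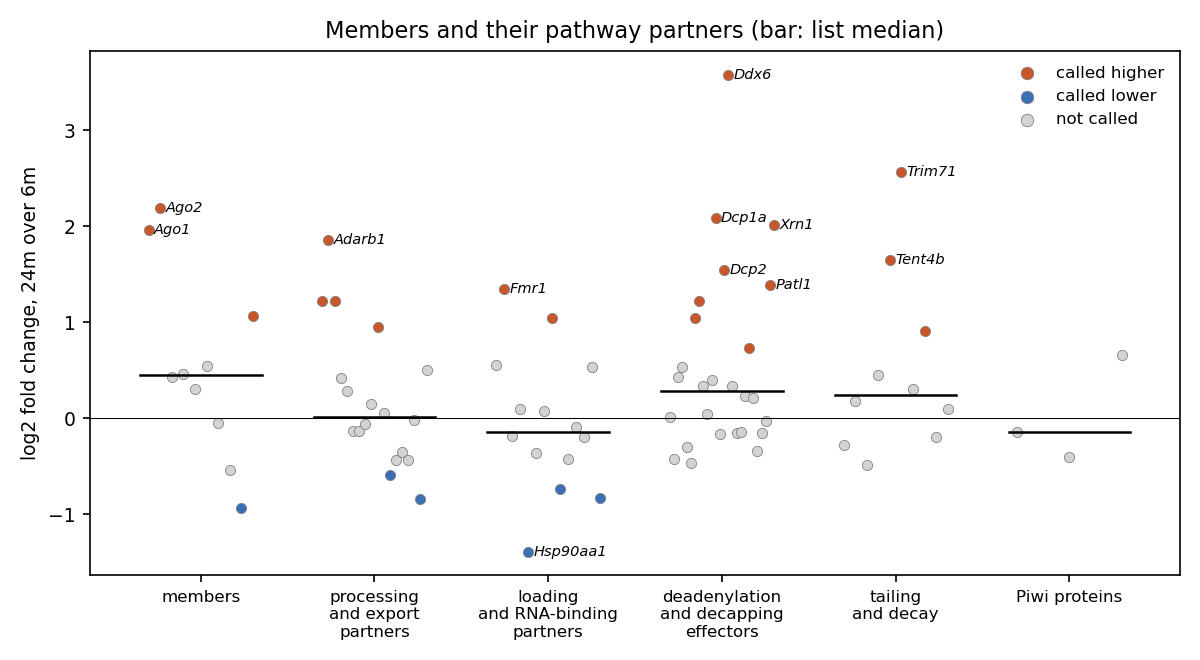
Log2 fold change, 24m over 6m, of the 10 machinery genes and of 71 tested genes in 5 lists of partners. Orange points were called higher, blue points lower and grey points neither, and black bars are list medians. Ddx6 lies highest at 3.58 and Hsp90aa1 lowest at -1.39. Trim71, called higher at 2.56, is shown, but its call is not read as a result.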

How the data were processed

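As described per the labels and in the study's methods, RNA of brain hemispheres from 4 6m and 4 24m males was poly(A)-selected and sequenced from directional paired-end libraries. The authors trimmed reads (Trim Galore 0.4.11), aligned them to GRCm39 (HISAT2 2.1.0, per the processing notes) and counted them per gene with featureCounts. Strand and multimapping settings are not given in the sources used here. The deposited values are raw counts per gene.

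Counts were used as deposited. Of 22430 genes, 22281 matched the GENCODE annotation used for lengths, positions and overlaps, a later release than the authors' own. Replicates of an age differed by more than sampling noise (chi-square per degree of freedom 7.5 to 378 over 12 pairs). Genes were tested with edgeR 4.0.16 (R 4.3.3), TMM factors, age as the only term and Benjamini-Hochberg adjustment over 16730 genes. CPM are counts per 1e+06. Within-library ratios were compared by exact two-sided permutation over 70 assignments. Alternatives were other scalings, DESeq2 1.42.0, limma-voom 3.58.1, filters, thresholds, omitted libraries, the replicate number as a block and splines (5 degrees of freedom) over length or GC. On simulated counts for this comparison over 16730 genes, with 200 changed by a log2 value of 1, 68% of the changed genes were recovered and 5 unchanged genes called. Those changes were equal in both directions and had no length trend, whereas 43.6% of all genes were called in the data. The simulated rates need not hold for the data. The members, lists and tests were chosen with earlier results of these data known. All members were named. Of each partner list, up to 3 genes called higher with the largest and up to 3 called lower with the smallest fold change were named, with Xpo5, Tarbp2, Prkra, Ddx6, Cnot1, Pabpc1 and Tent4b at any value. Next to the Argonaute cluster, the 2 nearest tested genes on each side were named, and the 5 genes most like Dicer1.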

Additional observations from a re-analysis of the deposited data

How the results depend on the processing

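Of 567 values under alternative settings, 507 kept their direction and side of the threshold or stayed within the limits set for a count or median. With library totals alone, 6 members were called higher and 3 other pathway genes lower (32.6 and 10.4% of all genes). With the adjusted p alone, 6 members were called higher and 2 lower (32.7 and 29.9% of all genes). With the length, the GC or both trends removed, 2 members were called lower (20.4, 22.7 and 20.5% of all genes), and with the length trend removed 19 other pathway genes were. Directions turned for Drosha with library totals (0.18) and quantile normalization with DESeq2 (0.10), and for Dgcr8 (-0.20 and -0.24), Dicer1 (-0.10 and -0.13) and Ago3 (-0.19 and -0.21) with the length or both trends removed. Cnot1 was at -0.61 with the length trend removed. Removing a trend over length lowers long genes relative to short ones by construction here, and for the other settings the cause was not tested.

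With each library left out in turn, 3 to 5 members were called higher and 1 to 2 lower, the 5 without 24m replicate 1 (27.8% of all genes). Over these omissions 23 to 27.8% of all genes were called higher and 15.7 to 21.9% lower. Drosha ranged from -0.09 to 0.02 and Cnot1 from -0.09 to 0.07. The Dicer1 to Drosha difference ranged from 0.44 to 0.69 and passed without 24m replicate 1. The Tnrc6b to Tnrc6a difference ranged from -0.50 to -0.33. Its exact permutation p was 0.0571 with any 6m library left out, although the ages were still apart there.

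The replicate numbers did not pair the samples (correlations of same-numbered libraries 0.271, 0.143, 0.0778 and -0.348, with 2 of 8 libraries correlating best with their own number). With the replicate block 3 members were called higher and 1 lower, as without it (24.6 and 18.7% of all genes). Dgcr8, Dicer1 and Ago3 then had edgeR adjusted p of 0.058, 0.0692 and 0.0981. Counts of 85 to 335 in a library limit the precision for Ago3 and Ago4, and in groups of 4 no member or ratio had a library set apart by the gap test applied (74 groups tested).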
